A study of Mus musculus with 483 samples.

Results

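The 38 genes described here belong to the NF-kappaB pathway. They are 5 NF-kappaB subunits, 5 IkappaB proteins, 6 subunits of IkappaB kinases or kinases upstream of them, 5 TRAF adaptors and cellular inhibitors of apoptosis, 5 feedback proteins or TNF-induced genes, 3 adhesion molecules, 6 chemokines and cytokines, and 3 survival genes. They were chosen by name from the 46078 genes of a single-cell count table. Of the 38, 31 were measured: they had a read in 5% or more of the 483 cells, a limit that 15204 genes of the table passed.

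The cells came from mouse embryos, from the aorta-gonad-mesonephros (AGM), the region where the first blood stem cells form from the wall of the aorta. Cells with CD31 and kit but without CD45 on their surface had been sorted and sequenced 1 by 1 with the full-length Smart-Seq2 method, Nextera XT libraries and a HiSeq instrument. Of the 483 cells 50.5% were labelled aDll4-treated and 49.5% Ctrl. What aDll4 stands for is not said in the labels, although Dll4 is the usual symbol of a Notch ligand of arterial endothelium. The submitters assigned each cell to 1 of 7 clusters (ICGS) and labelled the cells hematopoietic stem cells, although most carried endothelial markers, with no genotype, strain, embryo age or dose in the sources used here.

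No label names an embryo, a litter or a culture. Each treatment was therefore treated as 1 sample, no test was made between treatments and no p-value is given. Intervals at 95% cover counting error only, and amplified reads of a cell are not independent molecules. A level is the reads of a gene summed over the cells of a group per 1000000 summed reads (CPM), and a log2 ratio is treated over Ctrl with 1 CPM added to each, which understates differences of low genes. "Past the fold" means a log2 ratio of 0.5 or more in size. The library numbers in the titles fall into a block under 20000 (block 1, 4 runs of up to 96 consecutive numbers) and a block over 22000 (block 2, 2 runs), and every run held cells of both treatments. What the blocks and runs were in the laboratory is not given.

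NF-kappaB proteins are dimeric transcription factors held in the cytoplasm by IkappaB proteins. Signals from receptors of the TNF, interleukin-1 and Toll-like families activate a kinase complex that marks IkappaB for degradation, and the freed dimers enter the nucleus and bind kappaB sites. Among their targets are genes of their own inhibitors, such as Nfkbia and Tnfaip3, and in endothelium genes of leukocyte adhesion such as Icam1. A second, noncanonical route runs through Map3k14 and Chuk and yields Relb dimers, and the protein products of Traf2, Traf3, Birc2 and Birc3 hold it in check.

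Start regions of 6 members are shown because they hold the kappaB consensus and because these members were past the fold in treated endothelial cells of block 1. They are 140-base stretches around the RefSeq transcription start (GRCm38.p6), written 5′ to 3′ on the strand of the gene, with matches in capitals. They run in the order Nfkbia (chr12:55492618-55492757, minus strand), Tnip1 (chr11:54962922-54963061, minus), Nfkb2 (chr19:46304627-46304766, plus), Bcl3 (chr7:19822726-19822865, minus), Traf3 (chr12:111166260-111166399, plus) and Tnfaip3 (chr10:19015404-19015543, minus).
Nfkbia: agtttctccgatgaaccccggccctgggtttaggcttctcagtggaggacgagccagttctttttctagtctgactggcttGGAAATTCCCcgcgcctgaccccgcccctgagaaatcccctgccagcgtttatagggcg
Tnip1: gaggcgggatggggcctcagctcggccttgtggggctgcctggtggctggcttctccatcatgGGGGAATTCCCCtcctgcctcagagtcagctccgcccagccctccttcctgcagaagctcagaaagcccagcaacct
Nfkb2: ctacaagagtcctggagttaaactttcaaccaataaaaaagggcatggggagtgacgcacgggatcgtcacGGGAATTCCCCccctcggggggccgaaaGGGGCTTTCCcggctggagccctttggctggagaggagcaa
Bcl3: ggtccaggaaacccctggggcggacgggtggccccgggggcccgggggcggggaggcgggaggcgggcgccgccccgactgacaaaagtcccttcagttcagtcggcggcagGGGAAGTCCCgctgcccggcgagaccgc
Traf3: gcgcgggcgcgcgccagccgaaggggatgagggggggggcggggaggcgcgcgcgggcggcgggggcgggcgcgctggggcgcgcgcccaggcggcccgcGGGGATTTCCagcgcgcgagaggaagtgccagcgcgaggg
Tnfaip3: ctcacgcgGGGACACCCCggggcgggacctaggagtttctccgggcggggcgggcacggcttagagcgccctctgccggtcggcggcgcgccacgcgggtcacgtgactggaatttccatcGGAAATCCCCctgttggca

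The search used the kappaB consensus of 10 letters on both strands, in windows of 250 bases before and 50 bases after each start, with overlapping matches counted. Of the 30 members with a window, 15 held a match, or 50%, against 9.55% of the 27025 genes with a window. Tnip1 held 3 overlapping matches in the stretch shown, and Nfkb2 held 2 that overlap and a further 1. Of the 17 measured members past the fold upwards in block 1 of clusters 1 to 3, 13 had a window and 9 of these a match, and of the 14 other measured members 12 had a window and 4 a match. The windows of Birc3 and Icam1 did not contain these letters. A match is a description of the letters and not evidence of binding.

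Endothelial cells here are the 395 cells of clusters 1, 2 and 3, with 86, 72 and 36 treated cells and 97, 73 and 31 Ctrl cells in those clusters. Of these, 300 were in block 1 (48.7% treated) and 95 in block 2 (48 treated, 47 Ctrl). Endothelial markers were present. The 8 listed summed to 6389 CPM in treated and 6605 CPM in Ctrl cells of block 1, with 6 below 0 in log2 ratio. In block 2 they summed to 6081 and 6677 CPM, also with 6 below 0. Cdh5, a junction protein of endothelium, had 338 CPM in treated and 336 CPM in Ctrl cells of block 1, and 365 and 411 CPM in those of block 2. In cluster 3 the 8 summed to 4179 CPM in treated and 5166 CPM in Ctrl cells, and the listed mesenchymal markers to 532 and 245 CPM. Ptprc, which encodes CD45, did not exceed 1.85 CPM in any treatment of any of these clusters, as the sort for cells without CD45 would give. Clusters 4 and 5 carried mesenchymal markers and clusters 6 and 7 hematopoietic markers. Gene-assigned reads per endothelial cell ranged from 123097 to 2451790 in treated cells (median 838945) and from 136928 to 2870618 in Ctrl cells (median 875380). In block 1, 88.4% of the treated endothelial cells had 10 or more reads of Y-linked genes and 0 had as many of Xist, whereas Ctrl cells divided into 73 with Y-linked reads, 71 with Xist and 10 with neither. In block 2, 44 of 48 treated cells were Xist-positive and 0 Y-positive, and Ctrl cells divided into 21 Xist-positive, 19 Y-positive and 7 with neither. In each block the treated cells that could be sexed were of 1 sex and the Ctrl cells of both, so treatments were also compared within a sex, while treatment and embryo cannot be told apart.

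In treated endothelial cells of block 1, NF-kappaB members were higher than in Ctrl cells across most roles, and in block 2 they were not. In block 1, 17 of 31 measured members were past the fold upwards, against 7.09% of all measured genes, and 0 were past it downwards (9.4% of genes). Their median log2 ratio was 0.55. In block 2, 5 members were past the fold upwards (17.1% of genes) and 8 downwards (19.4% of genes), with a median of -0.24. With both blocks together, 13 were past it upwards (6.06%) and 1, Birc2, downwards (8.6%), with a median of 0.38 beside 0.00 for all genes. Over all 483 cells the counts were 12 upwards (5.87%) and 0 downwards (6.48%), with a median of 0.36.

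**Figure D1:**
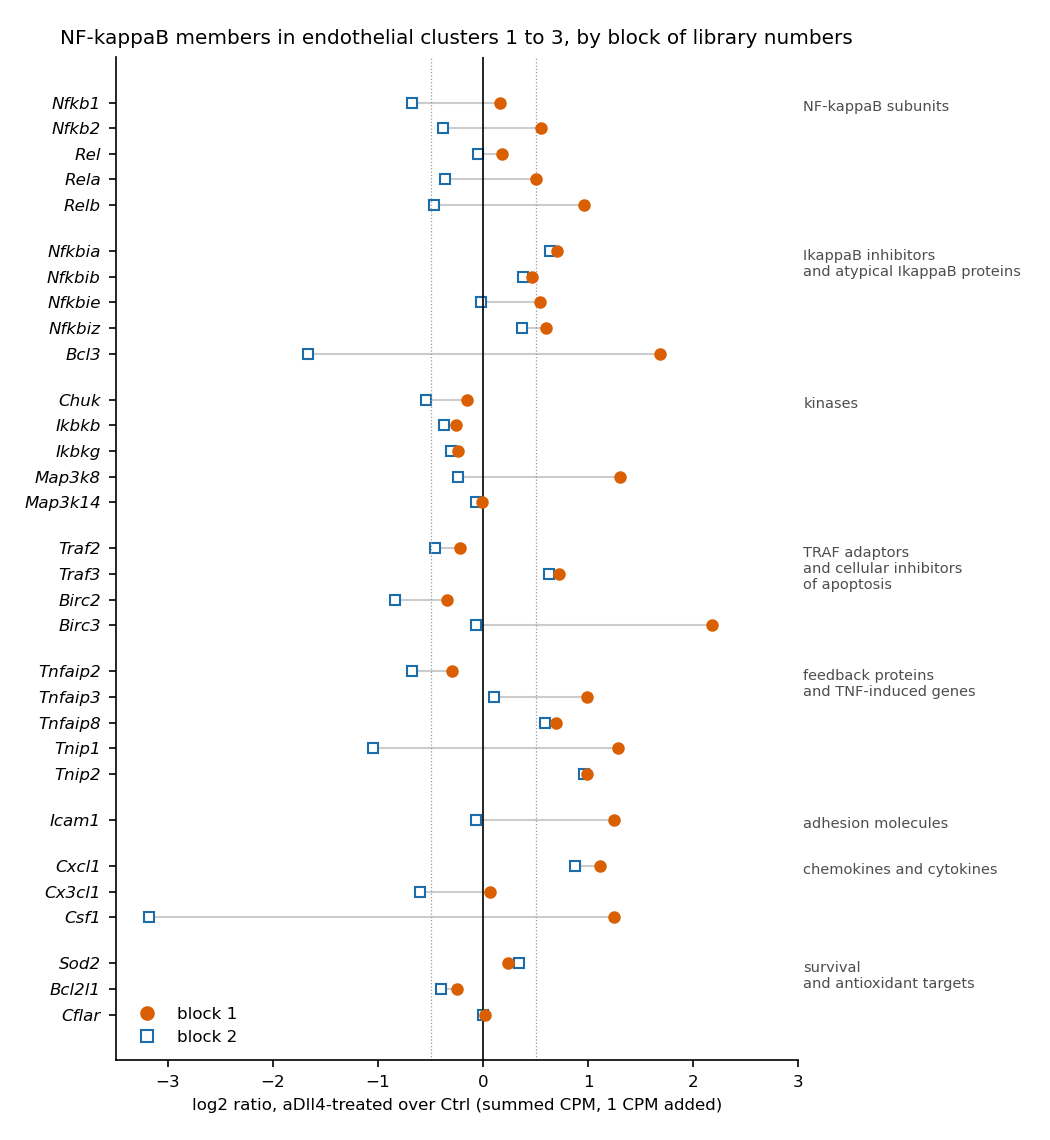
Log2 ratio of treated over Ctrl summed CPM (1 CPM added) in endothelial cells for each of the 31 measured members, grouped by role, with 1 point for block 1 and 1 for block 2 and dotted lines at -0.5 and 0.5. Most block 1 points of subunits, IkappaB proteins, feedback proteins and Icam1 lie right of 0, up to 2.18 for Birc3, while block 2 points spread from -3.18 for Csf1 to 0.96 for Tnip2.

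The direction differed between the blocks for 14 of 31 members, which is close to the 47% of all genes that did so. Bcl3, Tnip1 and Csf1 went further: they were past the fold upwards in block 1 and downwards in block 2, as 4.81% of genes were past it with opposite signs. A group of 7 members was past the fold upwards in both blocks together and above 0 in each (4.81% of genes), namely Nfkbia, Nfkbiz, Traf3, Tnfaip3, Tnfaip8, Tnip2 and Cxcl1. Birc2 alone was past it downwards and below 0 in each block (6.95% of genes).

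Over runs, 6 members had every treated run of block 1 above every Ctrl run (2.01% of genes): Nfkbia, Bcl3, Map3k8, Tnfaip8, Tnip1 and Icam1. Treated cells were above Ctrl cells in all 6 runs for 5 members (2.18% of genes): Nfkbia, Nfkbib, Nfkbiz, Tnfaip8 and Sod2. Nfkbia and Tnfaip8 belonged to both sets. Cells of a run may share embryos, and runs were not used as replicates. In block 2, ranges without overlap compare only 2 treated with 2 Ctrl levels. The share of all genes without overlap in block 2 is not given here, so such members cannot be set against it.

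**Figure D2:**
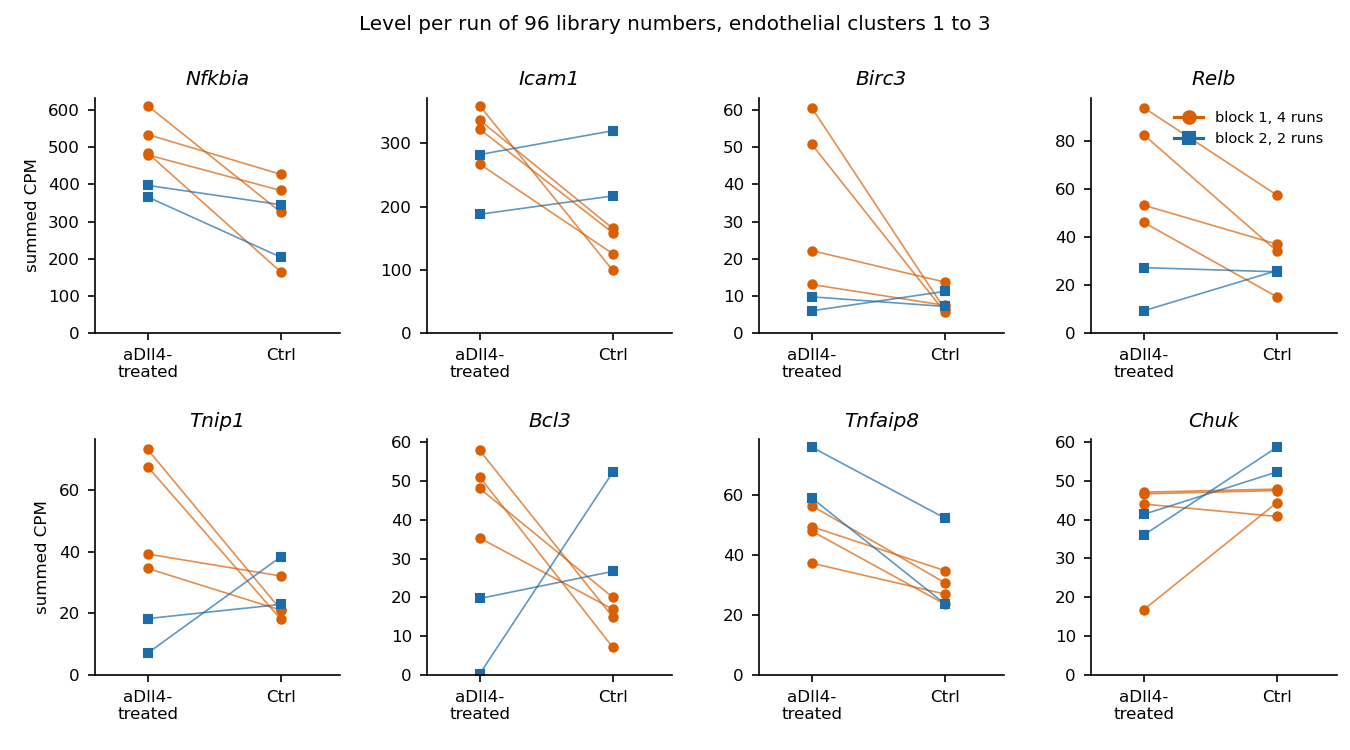
Summed CPM of 8 members in endothelial cells of each run of library numbers (runs 1 to 4 are block 1, runs 5 and 6 block 2). Treated points stand left of Ctrl points, and a line joins the points of a run. Icam1 has every treated point of block 1 (267 to 360 CPM) above every Ctrl point (99.6 to 165.8 CPM), Bcl3 changes its order in block 2, Tnfaip8 keeps it in all 6 runs, and Chuk, a kinase subunit shown for contrast, is below Ctrl in 5 of 6.

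All 5 subunits were measured, and the direction of their summed levels followed the block. In block 1 all 5 were above 0, with 3 past the fold (Nfkb2, Rela and Relb) and a median of 0.50, and in block 2 all 5 were below 0 with a median of -0.38. The runs of block 2 were less even, and only Nfkb1 was below 0 in both. In run 5 Nfkb2 (0.62), Rela (0.31) and Relb (0.09) were above 0, and in run 6 Rel was (0.87). Relb (ENSMUSG00000002983, mm10 chr7:19606217-19629438, minus strand) is the subunit of the noncanonical route. Its levels in the 4 runs of block 1 were 53.3, 82.7, 46.2 and 93.998 CPM in treated cells, against 37.1, 34.3, 15.2 and 57.6 CPM in Ctrl cells. Treated cells were higher in each run, but the ranges overlap, since the highest Ctrl run exceeded both low treated runs. Over the runs of block 2 Relb had 27.3 and 9.36 CPM in treated cells and 25.6 and 26.1 CPM in Ctrl cells. Summed over block 1 the level was 72.5 CPM in treated and 36.7 CPM in Ctrl cells, a log2 ratio of 0.96, and over block 2 it was 18.3 and 25.7 CPM, a ratio of -0.47.

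Nfkb2 (ENSMUSG00000025225, chr19:46304320-46312385, plus strand) encodes p100, which is processed to p52, the partner of Relb. It had 67.9, 94.97, 69.7 and 103.6 CPM in the treated runs of block 1, against 56.2, 61.7, 29.7 and 82.4 CPM in the Ctrl runs, higher in each run with overlapping ranges. The block 1 log2 ratio was 0.55. The runs of block 2 had 42.96 and 9.05 CPM in treated cells and 27.5 and 50.99 CPM in Ctrl cells, in opposite order in the 2 runs, for a ratio of -0.38. Other genes overlap 11.6% and 6.52% of its exon bases and 14.9% of its 50-base stretches occur elsewhere, and the reads do not mark the strand, so its counts are uncertain to that extent.

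Rela (ENSMUSG00000024927, chr19:5637483-5648130, plus strand), the main transactivating subunit, had the highest level per length of the subunits, 24.4 reads per kb of exon per 1000000 reads (RPKM) in treated and 20.4 RPKM in Ctrl endothelial cells. In block 1 it had 83.7 CPM in treated and 58.8 CPM in Ctrl cells, a log2 ratio of 0.50, and treated cells were higher in 3 of the 4 runs. The treated runs were 82.3, 108.7, 59.6 and 74.2 CPM, the Ctrl runs 70.8, 26.5, 53.4 and 89.8 CPM, and the ranges overlap. Block 2 had 55.9 CPM in treated and 72.3 CPM in Ctrl cells, a ratio of -0.36. Nfkb1, which encodes p105 and p50, had 75.1 CPM in treated and 67.3 CPM in Ctrl cells of block 1 (0.16), and 45.3 and 72.8 CPM in block 2 (-0.67), where both treated runs lay below both Ctrl runs. Rel, the c-Rel subunit known best from lymphocytes, had ratios of 0.18 in block 1 and -0.05 in block 2.

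IkappaB proteins were all measured, and all 5 were above 0 in block 1, with 4 past the fold and a median of 0.60. In block 2 the median was 0.37, with Nfkbia past the fold upwards and Bcl3 downwards. Nfkbia (ENSMUSG00000021025, chr12:55489410-55492647, minus strand) encodes IkappaB-alpha, the inhibitor that NF-kappaB itself induces, and its start region is the first of those printed. Per length it was the most abundant of all members, at 303 RPKM in treated and 189.3 RPKM in Ctrl cells. Over the 6 runs it had 479, 611, 484, 534, 366 and 397 CPM in treated cells, against 384, 326, 165.3, 427, 204.5 and 345 CPM in Ctrl cells. Every treated run of block 1 was above every Ctrl run there, and the same held for both runs of block 2. Summed over both blocks it had 488 CPM in treated cells (484 to 491) and 305 CPM in Ctrl cells (302 to 307), with log2 ratios of 0.70 in block 1 and 0.64 in block 2.

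Bcl3 (ENSMUSG00000053175, chr7:19808462-19822770, minus strand) encodes a nuclear IkappaB-like partner of p50 and p52 dimers. It had 35.3, 57.9, 48.1 and 51.1 CPM in the treated runs of block 1, against 16.99, 14.99, 20.1 and 7.18 CPM in the Ctrl runs, without overlap. In block 2 the order was turned round, with 19.7 and 0.272 CPM in treated runs and 26.7 and 52.3 CPM in Ctrl runs, again without overlap. The log2 ratios were 1.68 in block 1 and -1.67 in block 2. An antisense gene overlaps 6.51% of its exon bases.

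Nfkbiz, another nuclear IkappaB protein that serves as a coactivator, had 36.4 CPM in treated and 23.6 CPM in Ctrl cells of block 1 (log2 ratio 0.60) and 33.5 and 25.7 CPM in block 2 (0.37). Its treated levels over the 6 runs ran from 28.1 to 45.3 CPM and its Ctrl levels from 18.7 to 33.8 CPM, and the ranges overlap although treated cells were higher in every run. Nfkbie, IkappaB-epsilon, had 22.98 CPM in treated and 15.4 CPM in Ctrl cells of block 1 (0.55) and 9.04 and 9.19 CPM in block 2 (-0.02), where reads came from 4 of 48 treated and 6 of 47 Ctrl cells. Nfkbib, IkappaB-beta, stayed under the fold at 0.47 and 0.38 but was higher in treated cells in 6 of 6 runs, and a neighbouring gene overlaps 14.5% of its exon bases.

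Of the 5 measured members of the kinase role, 1 was past the fold upwards in block 1 and 1 downwards in block 2, with medians of -0.15 and -0.30. Chuk and Ikbkb encode the catalytic subunits IKK-alpha and IKK-beta, and Ikbkg the scaffold NEMO, which is no kinase. Chuk, the highest of the role per length at 7.86 RPKM in treated and 9.52 RPKM in Ctrl cells, had 40.6 CPM in treated and 45.1 CPM in Ctrl cells of block 1 (-0.15). Its runs of block 2 had 36.04 and 41.4 CPM in treated cells and 58.6 and 52.3 CPM in Ctrl cells, without overlap, for a ratio of -0.54. Ikbkb had ratios of -0.26 and -0.37 in blocks 1 and 2, and Ikbkg of -0.24 and -0.30. Map3k14, the NF-kappaB-inducing kinase NIK, had ratios of -0.01 and -0.07 at levels under 4 CPM.

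Map3k8, the kinase Tpl2 that binds p105 and acts on the MAP kinase pathway, was the exception in this role. It had 4.45, 5.67, 7.68 and 10.01 CPM in the treated runs of block 1, against 0, 3.01, 1.82 and 3.58 CPM in the Ctrl runs, without overlap. In block 2 it had 1.88 and 7.34 CPM in treated runs and 7.79 and 0.134 CPM in Ctrl runs, in opposite order in the 2 runs. The log2 ratios were 1.31 in block 1 and -0.24 in block 2. In block 1 it was read in 16.4% of treated and 9.74% of Ctrl cells, and the top 5% of cells, 8 of each treatment, held 86.2% of its CPM in treated and 94.4% in Ctrl cells.

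Among the 4 measured TRAF adaptors and inhibitors of apoptosis, Birc3 and Traf3 were past the fold upwards in block 1, and Traf3 upwards and Birc2 downwards in block 2. Birc3 (ENSMUSG00000032000, chr9:7848699-7873186, minus strand) encodes cIAP2, a ubiquitin ligase of TNF receptor complexes and a classical NF-kappaB target. In block 1 its treated runs were 22.2, 50.8, 13.1 and 60.6 CPM and its Ctrl runs 13.7, 5.74, 7.50 and 6.49 CPM. Treated cells were higher in each run, and the lowest treated run lay just under the highest Ctrl run. Its runs of block 2 had 9.77 and 6.02 CPM in treated cells and 7.19 and 11.2 CPM in Ctrl cells, which overlap. Its summed level was 40.1 CPM in treated and 8.08 CPM in Ctrl cells of block 1, a log2 ratio of 2.18, the highest of the measured members, and 7.89 and 8.33 CPM in block 2, a ratio of -0.07. Of its 50-base stretches 7.56% occur elsewhere, chiefly in Gm7019, a predicted gene.

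Its neighbour Birc2 (ENSMUSG00000057367, chr9:7818227-7837064, minus strand), which encodes the paralog cIAP1, went the other way. It had 21.9 CPM in treated and 27.96 CPM in Ctrl cells of block 1 (-0.34) and 28.6 and 52.02 CPM in block 2 (-0.84), but was lower in treated cells in only 3 of 6 runs. Of the 50-base stretches of Birc2, 1.49% occur elsewhere, in Birc3. Traf3, an adaptor that directs NIK to degradation, had 18.3 CPM in treated and 10.7 CPM in Ctrl cells of block 1 (0.72). Block 2 had 10.9 CPM in treated and 6.67 CPM in Ctrl cells (0.63), and there the ratio was 0.02 without the 3 highest cells of each treatment. Traf2, the adaptor that recruits cIAP proteins, was below 0 in both blocks, at -0.21 and -0.46.

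Feedback proteins had the highest median in block 1 among the roles with 4 or more measured members, at 0.99, with 4 of 5 past the fold. In block 2 the median was 0.10, with 2 past it upwards and 2 downwards. Tnip1 (ENSMUSG00000020400, chr11:54910785-54962917, minus strand) encodes ABIN1, a ubiquitin-binding partner of A20. In block 1 it had 39.3, 67.7, 34.6 and 73.3 CPM in treated runs, against 32.2, 18.2, 21.1 and 21.3 CPM in Ctrl runs, without overlap. The runs of block 2 had 18.3 and 7.11 CPM in treated cells and 22.9 and 38.4 CPM in Ctrl cells, without overlap in the other direction. The log2 ratios were 1.28 and -1.04.

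Tnfaip3, which encodes A20, the deubiquitinase that ends TNF signalling, had 20.2 CPM in treated and 9.65 CPM in Ctrl cells of block 1 (1.00) and 14.3 and 13.2 CPM in block 2 (0.10). Its treated runs of block 1 were 19.5, 20.5, 14.2 and 24.3 CPM and its Ctrl runs 9.50, 9.43, 3.71 and 15.1 CPM, so that the highest Ctrl run lay just above the lowest treated run. Tnip2, ABIN2, which binds A20 and Tpl2, had ratios of 0.99 and 0.96, with 23.4 CPM in treated and 11.3 CPM in Ctrl cells of block 1 and 13.01 and 6.20 CPM in block 2. Its direction was less even over runs than these ratios: treated cells were higher in 4 of 6 runs, with 44.3 CPM in treated and 10.7 CPM in Ctrl cells of run 4.

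Tnfaip8, a TNF-induced gene of a lipid-transfer protein family, had 37.2, 47.9, 56.3, 49.3, 75.8 and 58.9 CPM in treated cells over the 6 runs. Its Ctrl levels were 26.9, 23.6, 30.7, 34.7, 52.2 and 23.7 CPM, lower in every run. An overlapping gene covers 12.7% of its exon bases. Tnfaip2, induced by TNF in endothelium, was lower in treated cells of both blocks, at 23.6 CPM in treated and 29.3 CPM in Ctrl cells of block 1 (-0.30) and 30.3 and 48.9 CPM in block 2 (-0.67).

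Icam1 (ENSMUSG00000037405, chr9:21015985-21028817, plus strand), the endothelial receptor for leukocyte integrins, was the only adhesion molecule measured. In block 1 it had 267, 360, 337 and 323 CPM in treated runs, against 125.9, 99.6, 165.8 and 158.8 CPM in Ctrl runs. Every treated run was well above every Ctrl run. The runs of block 2 had 188.01 and 282 CPM in treated cells and 216.97 and 320 CPM in Ctrl cells, lower in treated cells in each. The log2 ratios were 1.25 and -0.06. Per length it was second among the members, at 67.9 RPKM in treated and 38.3 RPKM in Ctrl cells. An antisense gene overlaps 11.7% of its exon bases, and 13.1% of its 50-base stretches occur elsewhere.

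Of the 3 measured chemokines and cytokines, 2 were past the fold upwards in block 1, and in block 2 1 upwards and 2 downwards, at low levels or from few cells. Cxcl1, a neutrophil chemokine, had 7.97 CPM in treated and 3.14 CPM in Ctrl cells of block 1 (1.11), from 19 treated and 11 Ctrl cells. Without the highest cell of each treatment the ratio was 0.44. Block 2 had 43 reads in 1 treated cell and 0 reads in Ctrl cells. Set against the floor of 3 reads over the Ctrl cells, 0.0564 CPM, that is at least 14.9-fold higher, from a single cell.

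Csf1, the macrophage growth factor M-CSF, had 10.2, 7.05, 19.1 and 20.5 CPM in treated runs of block 1, against 13.5, 5.33, 0 and 2.86 CPM in Ctrl runs, which overlap. In block 2 it had 0.117 and 1.67 CPM in treated runs and 12.5 and 25.8 CPM in Ctrl runs, without overlap. The ratios were 1.24 and -3.18, the widest span of any measured member. In block 2 it was read in 4 of 48 treated and 10 of 47 Ctrl cells, and a single Ctrl cell held 39.5% of the Ctrl CPM. Cx3cl1, the membrane-bound chemokine fractalkine, led the role per length at 7.77 RPKM in treated and 8.62 RPKM in Ctrl cells, with ratios of 0.07 and -0.60.

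The survival genes differed little. Sod2, mitochondrial superoxide dismutase, had 67.2 CPM in treated and 57.03 CPM in Ctrl cells of block 1 (0.23) and 73.6 and 57.9 CPM in block 2 (0.34), and was higher in treated cells in 6 of 6 runs. Of its 50-base stretches, 21.04% occur elsewhere. Bcl2l1, which encodes Bcl-xL, had ratios of -0.25 and -0.40. Cflar, the caspase-8 inhibitor c-FLIP, had 57.8 CPM in treated and 56.8 CPM in Ctrl cells of block 1 and 42.4 and 42.5 CPM in block 2, the closest agreement among the members.

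Unmeasured members were read in too few cells to compare. Of 483 cells, Ikbke was read in 17, Traf1 in 9, Vcam1 in 22, Sele in 2, Ccl2 in 7, Cxcl10 in 12 and Il6 in 4. Endothelial Il6 had 0 reads in either treatment. Vcam1, an adhesion molecule that endothelium displays under inflammation, had 0.0846 CPM in treated and 0.428 CPM in Ctrl endothelial cells, while in the mesenchymal clusters 4 and 5 it had 16.1 CPM in 19 treated and 114.7 CPM in 16 Ctrl cells. E-selectin (Sele) was read in 1 treated endothelial cell of block 1.

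Whether most endothelial cells or a few carried the block 1 differences depended on the member. Icam1 and Nfkbia were higher across the population. Of treated cells 73.97% (66.1 to 80.9) had 50 CPM or more of Icam1, against 53.2% of Ctrl cells (45.1 to 61.3), and the median cell had 164.3 CPM in treated and 75.5 CPM in Ctrl cells. For Nfkbia 84.9% of treated cells (78.1 to 90.3) and 67.5% of Ctrl cells (59.5 to 74.9) reached 50 CPM, with medians of 311 CPM in treated and 164.6 CPM in Ctrl cells. Shares of cells with any read hardly differed for either gene, by 3.15 points for Icam1 (-5.25 to 11.4) and 0.436 points for Nfkbia (-4.69 to 5.49). Without the top 5% of cells of each treatment, 8 and 8, the log2 ratios were 1.08 and 0.75. Here and for the members below, cells were dropped from both treatments. Such ratios thus cannot show how far a difference rested on the top treated cells.

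Birc3 was carried by a minority. A read was found in 47.3% of treated and 26.6% of Ctrl cells, a difference of 20.6 points (9.74 to 30.9), and the median cell had 0 CPM in both treatments. The upper quartile was 42.9 CPM in treated and 0.863 CPM in Ctrl cells, and 36 treated cells (24.7%, 17.9 to 32.5) against 11 Ctrl cells (7.14%, 3.62 to 12.4) had 50 CPM or more. The top 5% of cells held 36.7% of the CPM in treated and 59.5% in Ctrl cells. Without them the log2 ratio was 2.72, beside 2.18 with all cells, and the larger share of CPM was dropped from Ctrl cells.

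The other members lay between. Relb reached 50 CPM in 37.7% of treated and 24.03% of Ctrl cells of block 1, Bcl3 in 30.8% and 11.7%, and Tnip1 in 32.9% and 16.2%. Without the top 5% of cells their ratios were 1.00, 1.74 and 1.40. Split into the share of cells with a read and the mean of those cells, the log2 ratio of Bcl3 was 0.61 and 1.09, that of Tnip1 0.41 and 0.76, and that of Tnfaip3 0.87 and 0.31. For Csf1 nearly all of it lay in the share, at 1.25 and 0.04, as 24.7% of treated and 10.4% of Ctrl cells had a read.

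**Figure D3:**
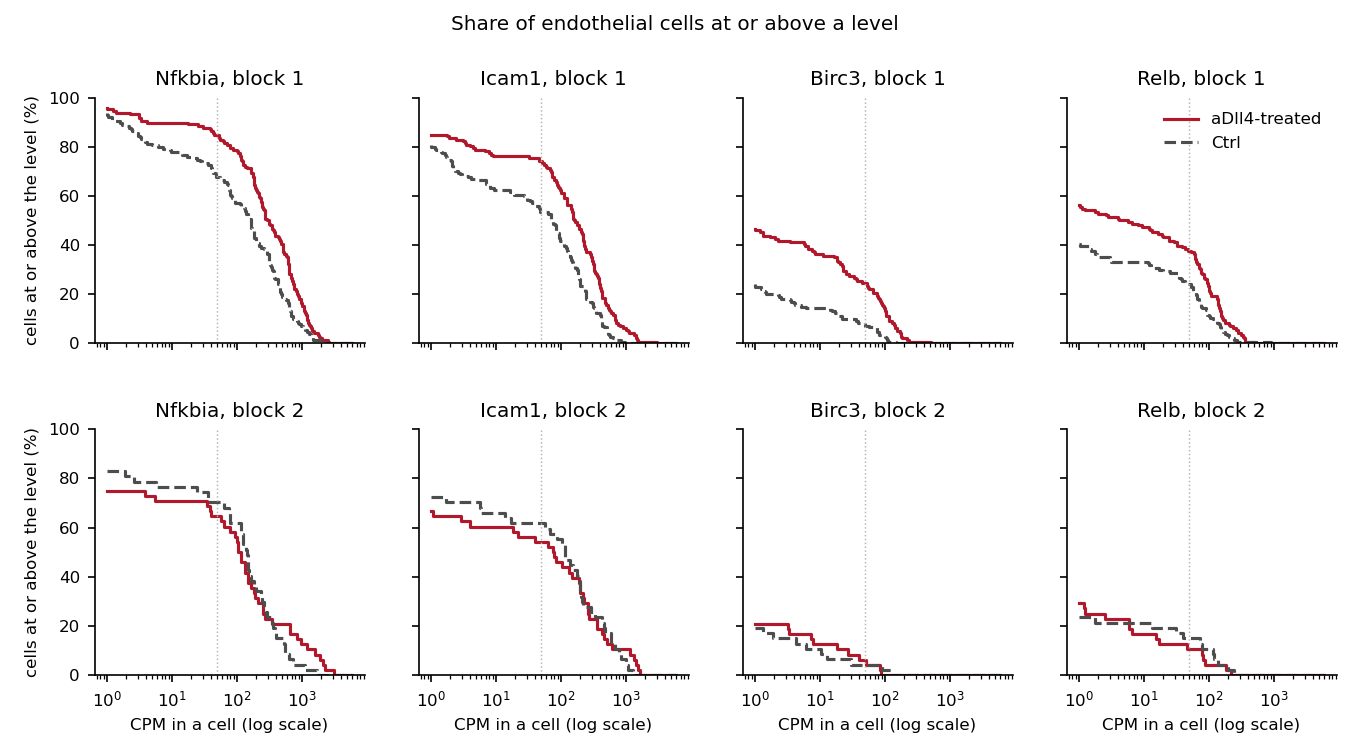
Share of endothelial cells, in percent, at or above each CPM level (log axis) for Nfkbia, Icam1, Birc3 and Relb, in block 1 (300 cells) and block 2 (95 cells), with a dotted line at 50 CPM. In block 1 the treated curves of Nfkbia and Icam1 lie above the Ctrl curves over most levels, and the Birc3 curve starts lower and stands apart at 50 CPM, at 24.7% of treated and 7.14% of Ctrl cells.

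In block 2 the Nfkbia difference had another shape. Its summed level was higher in treated cells, but 64.6% of treated and 70.2% of Ctrl cells reached 50 CPM, and the median cell had 112.4 CPM in treated and 146.2 CPM in Ctrl cells. The 90th percentile was 1355 CPM in treated and 552 CPM in Ctrl cells, and the upper quartile 265 CPM in treated and 282 CPM in Ctrl cells. The 3 highest cells held 39.9% of the CPM in treated and 32.2% in Ctrl cells, and without them the log2 ratio was 0.87. Cells were dropped from both treatments, so this ratio cannot show how far the difference rested on the 3 treated cells. Bcl3 reached 50 CPM in 2 of 48 treated and 12 of 47 Ctrl cells of block 2, and Birc3 in 3 treated and 2 Ctrl cells. Counted per cell, a treated cell of block 1 had 8.64 ± 3.77 of the 31 members at 50 CPM or more and a Ctrl cell 6.89 ± 2.97 (SD over the cells of each treatment). In block 2 the numbers were 5.88 ± 2.82 in treated and 5.83 ± 3.52 in Ctrl cells.

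The 36 treated cells of block 1 with 50 CPM or more of Birc3 were 24.7% of the treated cells. They held more than that share of the summed CPM for 21 of the other 30 measured members and less for 9. Of all measured genes, 50.7% were above the share. The median was 32.7% over the members and 24.8% over all measured genes. The 11 Ctrl cells at this level, 7.14% of Ctrl cells, held more than their share for 19 of the other 30 members and less for 11. Of all measured genes, 39.6% were above the Ctrl share. The 36 treated cells held 52.2% of the treated Relb CPM, 46.4% of Tnip1, 43.4% of Icam1 and 42.2% of Nfkbia. Chuk was above the share as well, at 34.5%, and Traf2 (20.4%), Cxcl1 (18.8%) and Bcl2l1 (14.7%) were below it. All 36 had a read of Cdh5, with a summed level of 344 CPM. Ptprc stood at 0.0292 CPM and Csf1r, a macrophage marker, at 0.263 CPM, and Adgre1 and Tyrobp at 0. They thus carried Cdh5, with Ptprc, Csf1r, Adgre1 and Tyrobp at or near 0, and their other listed markers are not given here. Over all endothelial cells of block 1, the 8 listed pan-hematopoietic markers summed to 304.6 CPM in treated and 321.6 CPM in Ctrl cells. Not every listed blood marker was thus near 0 in these clusters.

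Over the 395 endothelial cells, the genes whose log2(CPM + 1) was most like that of Birc3 were all members when both treatments were pooled. Among 10890 genes read in at least 20% of these cells, the highest Spearman correlations with Birc3 were those of Tnip1 (0.33), Nfkbia (0.33), Relb (0.32), Nfkb2 (0.31) and Icam1 (0.28). In block 1 alone these 5 also held the first 5 ranks, whereas in block 2 their ranks ran from 67 for Relb to 4901 for Icam1. Within treated cells their ranks were 5, 8, 6, 11 and 16 and within Ctrl cells 66, 33, 92 and 20 for the first 4 and further down for Icam1, so that they did not hold the first ranks within either treatment. The correlations are weak, the cells share libraries and depth, and no p is given. Between 27 members, the 351 pairs had a median correlation of 0.096, from -0.099 to 0.35 for Relb with Tnip1. These pairs pool both treatments and both blocks, and no median over pairs of other genes is given to set beside them.

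**Figure D4:**
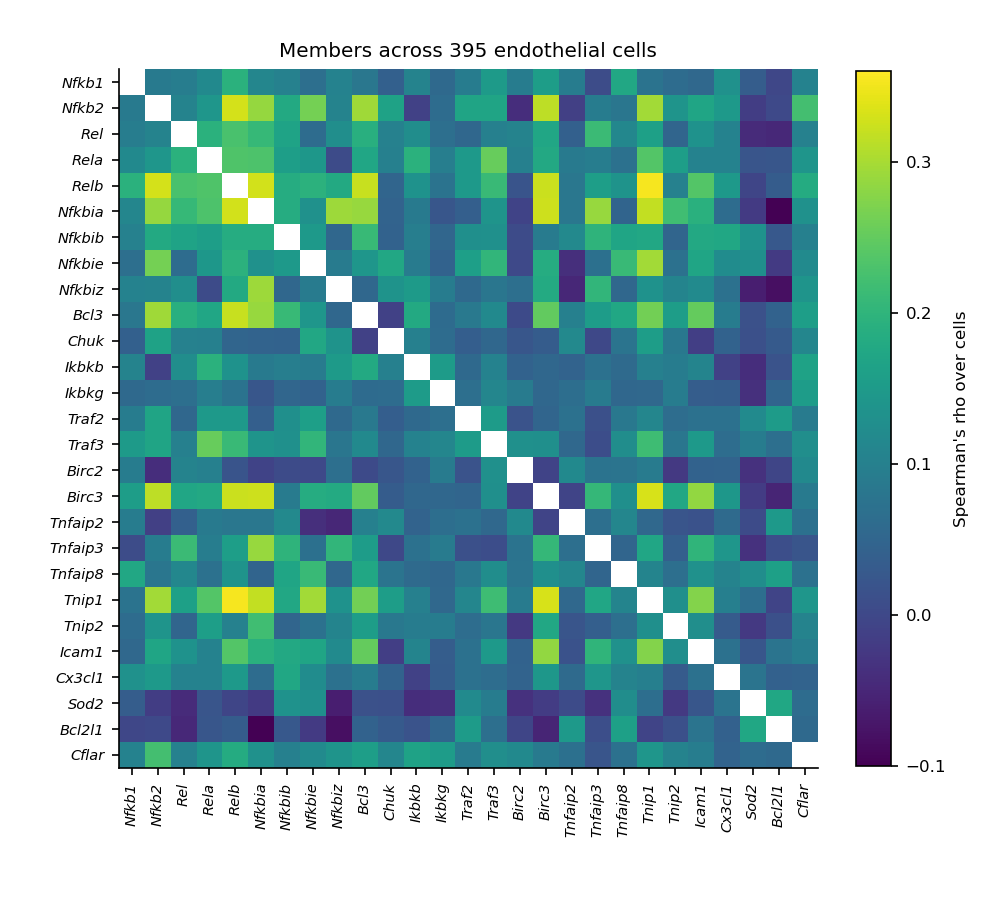
Spearman correlation of log2(CPM + 1) over 395 endothelial cells of both treatments between 27 members in order of role, with colour from negative to positive. The highest pairs lie among Nfkb2, Relb, Nfkbia, Birc3 and Tnip1, up to 0.35 for Relb with Tnip1, together with Relb and Bcl3 at 0.32, and Sod2 and Bcl2l1 with Birc3 are at -0.02 and -0.05.

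By cluster, the higher levels were clearest in cluster 1 (86 treated, 97 Ctrl cells). There 16 of 31 members were past the fold upwards (9.63% of genes) and 5 downwards (13.2%), with a median of 0.53. Icam1 had 379 CPM in treated and 156.6 CPM in Ctrl cells of cluster 1, Nfkbia 656 and 381.5 CPM, Birc3 45.7 and 9.53 CPM, and Nfkb2 103.1 and 49.7 CPM. Cluster 2 (72 treated, 73 Ctrl cells) had 7 members upwards (12.5%) and 7 downwards (13.8%), with a median of 0.02, and Relb stood at 39.7 CPM in treated and 40.6 CPM in Ctrl cells. In cluster 3 (36 treated, 31 Ctrl cells) there were 10 upwards (24.7%) and 10 downwards (24%), and Icam1 had 104.2 CPM in treated and 204.2 CPM in Ctrl cells, the opposite order to clusters 1 and 2. With both blocks together, Birc3 and Nfkbia were higher in treated cells of all 3 clusters. The log2 ratios were 2.15, 1.09 and 0.77 for Birc3 and 0.78, 0.65 and 0.24 for Nfkbia. In cluster 3 the blocks went opposite ways. Birc3 had a ratio of -1.21 in block 1 and 1.92 in block 2 there, and Nfkbia -0.72 and 1.28.

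**Figure D5:**
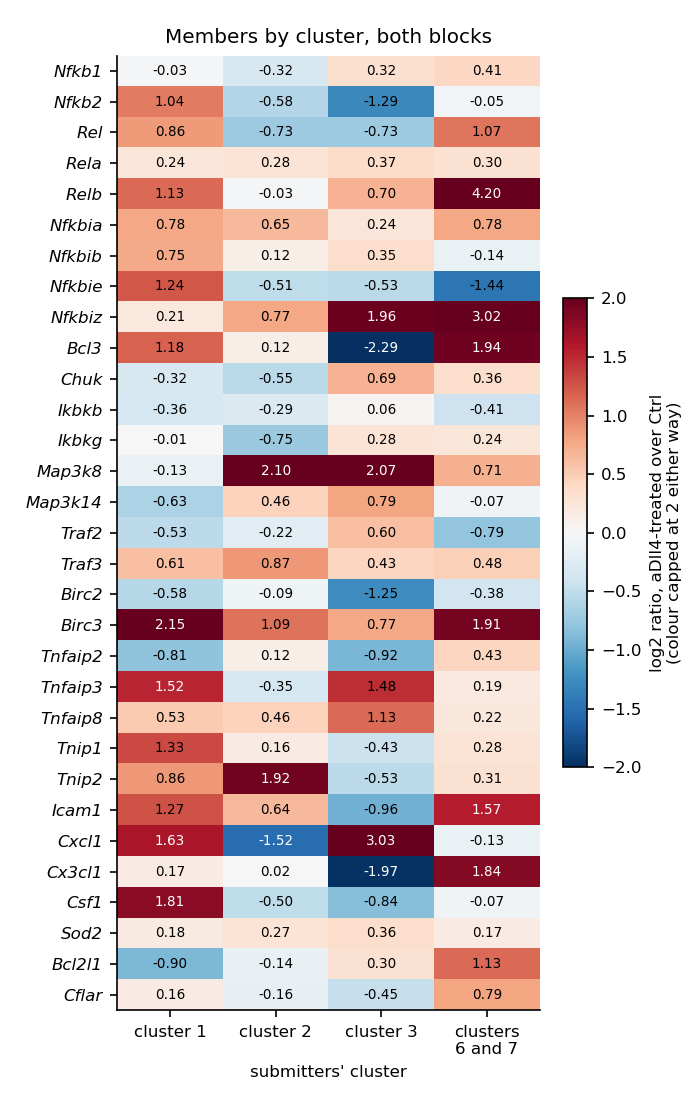
Log2 ratio of treated over Ctrl summed CPM (1 CPM added) of the 31 measured members in cluster 1, cluster 2, cluster 3 and the hematopoietic clusters 6 and 7 as 1 group, both blocks together, with colour by sign and size. Cluster 1 is mostly above 0, clusters 2 and 3 are mixed, and Relb is at 4.20 in clusters 6 and 7, where its Ctrl level lies under the floor.

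The median of the members in cluster 1 divided by block in the same direction as in the endothelial cells as a whole, but single members did not all follow. In its block 1 cells (73 treated, 81 Ctrl), 18 members were past the fold upwards (11% of genes) and 2, Map3k14 and Bcl2l1, downwards (12.8%). Icam1 had 409.5 CPM in treated and 131.9 CPM in Ctrl cells there, and Birc3 55.5 and 7.12 CPM. In its block 2 cells (13 treated, 16 Ctrl), 4 were past it upwards (19.4%) and 16 downwards (30.8%), with a median of -0.55. Birc3 had 9.13 CPM in treated and 16.8 CPM in Ctrl cells there. Some members had the opposite sign there to all endothelial cells of block 2. Among them were Nfkbiz (-1.99), Traf3 (-1.78) and Tnfaip8 (-0.92), below 0 in cluster 1, and Icam1 (0.18), above 0. Block 2 also held fewer cells of cluster 1, at 13 of 48 treated and 16 of 47 Ctrl endothelial cells, as shares, than block 1, where 73 treated and 81 Ctrl cells of 300 were in it.

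The hematopoietic clusters 6 and 7 held 31 treated and 22 Ctrl cells, and Rac2, a blood-cell GTPase, had 398 CPM in treated and 404 CPM in Ctrl cells. There 11 of 31 members were past the fold upwards (20.5% of genes) and 2 downwards (15.8%), with a median of 0.31. Birc3 had 24.9 CPM in treated and 5.90 CPM in Ctrl cells, and Relb 19.1 and 0.0952 CPM. Nfkbia was far lower than in endothelium, at 42.8 CPM in treated and 24.5 CPM in Ctrl cells, and so was Icam1, at 16.8 and 5.00 CPM.

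Treatments were compared within 1 sex in each block, Y-positive cells in block 1 and Xist-positive cells in block 2. The sex thus differed between the blocks, and the blocks were not compared within cells of like sex. The median of the members kept the sign it had with all endothelial cells of the block. Among Y-positive endothelial cells of block 1 (88.4% of treated cells, and 73 Ctrl cells), 18 members were past the fold upwards (12.1% of genes) and 0 downwards (11.3%), with a median of 0.75. Icam1 had 331 CPM in treated and 110.7 CPM in Ctrl cells, Nfkbia 529 and 259 CPM, and Birc3 42.4 and 5.34 CPM. Among Xist-positive cells of block 2 (44 treated, 21 Ctrl), 7 were past it upwards (22.5%) and 12 downwards (20.5%), with a median of -0.17, and Relb had 17.2 CPM in treated and 42.8 CPM in Ctrl cells.

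Ctrl cells differed among themselves too. Between Xist-positive and Y-positive Ctrl endothelial cells, all labelled Ctrl, 11 of 31 members differed by 0.5 or more in log2 in block 1 and 20 in block 2, where 26.3% and 47.9% of all genes did. In block 2 the log2 ratio of Xist-positive over Y-positive Ctrl cells was 3.58 for Birc3, 2.37 for Relb, 2.02 for Nfkb2 and 1.38 for Icam1. In block 1 it was 0.36, 0.01, 0.48 and 0.60. The median of the members between the Ctrl sexes of block 1 was 0.33, beside -0.02 for all genes. In block 1 the Ctrl difference between the sexes was larger in size than the treated over Ctrl ratio for 12 of 31 members, among them Nfkb1 (1.06 against 0.16), Rel (0.79 against 0.18), Nfkbie (0.70 against 0.55) and Tnip2 (1.01 against 0.99), and for 60.02% of all genes. In block 2 it was larger for 20 of 31 members and 59.6% of all genes.

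Other markers moved with these results in part. Summed mesenchymal markers of endothelial cells were 80.9 CPM in treated and 26.997 CPM in Ctrl cells of block 1, with 6 of 8 above 0 in log2 ratio and runs from 10.1 to 332 CPM in treated and 8.93 to 44.8 CPM in Ctrl cells. Summed myeloid markers were 15.7 CPM in treated and 8.47 CPM in Ctrl cells, with 7 of 11 above 0, runs from 6.53 to 33.6 and from 4.15 to 13.3 CPM, and Adgre1 at or near 0. Immediate early genes, which cell handling can induce, summed to 1518 CPM in treated and 1644 CPM in Ctrl cells of block 1. The same genes summed to 1203 CPM in treated and 1101 CPM in Ctrl cells of block 2, with 7 of 10 above 0 and runs from 969 to 1439 CPM in treated and from 938 to 1165 CPM in Ctrl cells, which overlap. Megakaryocyte markers of block 2 summed to 28.4 CPM in treated and 8.18 CPM in Ctrl cells, with 3 of 6 above 0 and runs of 23.03 and 33.8 CPM in treated and 7.66 and 9.49 CPM in Ctrl cells, without overlap. In block 2 mesenchymal markers summed to 141.1 CPM in treated and 160 CPM in Ctrl cells, and myeloid ones to 21.9 and 24.3 CPM. Their part in the member levels was not tested.

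Beside the 38, receptors, ligands and adaptors of the pathway were past the fold about as often as all genes. Of 42 receptors, ligands and adaptors, 35 were measured, and in clusters 1 to 3 with both blocks together 2 were past the fold upwards (6.06% of all genes) and 1 downwards (8.6%), with a median of 0.01. In block 1, 5 of the 35 were upwards (7.09% of genes) and 2 downwards (9.4%), with a median of 0.05. In block 2, 7 were upwards (17.1%) and 8 downwards (19.4%), with a median of -0.09. Ltb, the lymphotoxin-beta subunit, had 3.87 CPM in treated and 1.57 CPM in Ctrl cells (0.92), with ratios of 1.52 in block 1 and -1.63 in block 2. Tab3, an adaptor of the TAK1 kinase, had 17.4 and 11.4 CPM (0.57). Il1r1, the interleukin-1 receptor, had 2.58 CPM in treated and 4.90 CPM in Ctrl cells (-0.72). Of 39 other listed targets 21 were measured, with 5 upwards and 3 downwards against the same shares of genes, and a median of 0.03. In block 1 they had 7 upwards (7.09% of genes) and 3 downwards (9.4%) with a median of 0.31, and in block 2 they had 2 upwards (17.1%) and 8 downwards (19.4%) with a median of -0.29. These medians had the same signs as those of the members. H2-K1, an MHC class I heavy chain, had 31.7 CPM in treated and 11.04 CPM in Ctrl cells (1.44), with ratios of 2.12 in block 1 and -0.29 in block 2. Madcam1, an adhesion molecule of endothelium, had 79.3 CPM in treated and 50.8 CPM in Ctrl cells (0.63), with ratios of 1.03 in block 1 and -1.17 in block 2. With both blocks together, the 3 other targets past the fold downwards were Il15ra (-0.66), Gadd45b (-0.60) and Cd83 (-0.57).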

How the data were processed

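Single cells of the mouse AGM were measured by Smart-Seq2 RNA sequencing. The values the authors deposited are raw counts, whole numbers of reads assigned to each gene in each cell. Reads were aligned with GSNAP and assigned to genes with HTSeq 0.6.0 on mm10, per the submitters' processing notes. The sources used here do not give the annotation, the counting settings or any filter on cells. The table had 0 identical columns and 0 columns of no sample. Every cell was used and doublets were not called. Symbols and positions came from GENCODE M21 by Ensembl identifier, found for 45229 identifiers and not for 849. Start regions came from RefSeq windows of GRCm38.p6.

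The members and gene lists were chosen with earlier results of these data known. Treatments, clusters and library numbers came from the labels. Each treatment counted as 1 sample. Counts were summed over cells, scaled to CPM and compared as log2 ratios with 1 CPM added, with exact Poisson intervals for levels, exact Clopper-Pearson intervals for shares and Newcombe intervals for their differences, all at 95%. Depth per cell is given with the results. Described in full are measured members past a log2 ratio of 0.5 in size in endothelial cells, in either block or both together (22 members), and the highest of each role per kb. From the pathway lists, the 3 genes furthest from 0 each way were eligible. The genes most like Birc3 are the 5 with the highest Spearman correlation. Results were recomputed under 21 alternatives, and the functions were tested on simulated data. Python 3.11.15, NumPy 2.4.6, pandas 2.3.3, SciPy 1.17.1 and matplotlib 3.10.9 were used.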

Additional observations from a re-analysis of the deposited data

Results flagged for a closer look

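For 3 members every run of block 1 had higher levels in treated than in Ctrl endothelial cells and every run of block 2 had lower ones. The share of all genes with this run pattern is not given here, so the count of 3 cannot be set against it. By summed levels, 47% of genes had opposite signs in the blocks, and 4.81% were also past the fold in both. For Bcl3 the log2 ratio of treated over Ctrl was 3.35 higher in block 1 than in block 2. For Tnip1 this difference between the blocks was 2.33, and for Icam1 1.31. The difference between the blocks was not tested, since the labels name no embryo and a block holds each treatment once. In treated cells the blocks also differ in sex, with Y-positive cells in block 1 and Xist-positive cells in block 2, so that block, sex and embryo cannot be told apart there. Icam1 had 323 CPM in treated and 135.7 CPM in Ctrl cells of block 1, and 235.4 CPM in treated and 246 CPM in Ctrl cells of block 2, so that its Ctrl levels differed between the blocks more than its treated levels.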

How the results depend on the processing

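Under 21 alternatives, 9 described members kept the sign of their ratio in endothelial cells: Nfkbia (0.30 to 1.03), Nfkbiz (0.24 to 0.89), Traf3 (0.09 to 0.95), Tnfaip3 (0.10 to 1.31), Tnfaip8 (0.59 to 0.94), Tnip2 (0.51 to 1.93), Cxcl1 (0.34 to 1.40), Birc2 (-0.84 to -0.13) and Tnfaip2 (-1.31 to -0.17). With block 2 alone, members past the fold in both blocks together turned below 0, namely Bcl3 (-1.67), Birc3 (-0.069), Icam1 (-0.063), Map3k8 (-0.24), Relb (-0.47) and Tnip1 (-1.04). In Xist-positive cells of block 2 these were -1.51, -0.89, -0.55, -0.997, -1.27 and -1.47. The median of the members over all cells was -0.16 in block 2 and -0.018 in its Xist-positive cells, and in endothelial cells -0.24 and -0.17. Members higher over all cells were 4 and 6 of 31, and in endothelial cells 5 and 7. Members lower over all cells, 0 of 31 with every cell, were 3 of 38 with any read in place of the limit on low genes, 1 without the top 5% of cells, 8 in block 2, 11 in its Xist-positive cells, 1 without run 1, 1 without run 2 and 2 without run 3. Members lower in endothelial cells, 1 of 31, were 0 with 5 CPM added, with each cell at equal weight, with cells thinned to equal depth, without the highest cell, in block 1, in its Y-positive cells, without run 2 and without run 4. They were 2 with any read, 3 without run 3, 8 in block 2 and 12 in its Xist-positive cells. The cause was not tested. No paired analysis was possible because each treatment is 1 sample and no result comes from a test; values within runs, which hold cells of both treatments, stand with the results. Depth limits the members read in few cells, and the number of embryos is unknown.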

Other observations

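Vcam1 and Icam1 lay in different cells. Vcam1 had 16.1 CPM in treated and 114.7 CPM in Ctrl cells of the mesenchymal clusters 4 and 5, where Icam1 had 11.4 CPM in treated and 0.316 CPM in Ctrl cells. Endothelial cells had under 1 CPM of Vcam1 and 296 CPM in treated and 167.05 CPM in Ctrl cells of Icam1. After the 5 members, the genes most like Birc3 over endothelial cells were Irf1 and H2-D1 (0.28 each), an interferon response factor and an MHC class I heavy chain, and then Cd82, Ppm1j and Nova2 (0.27, 0.26 and 0.26). These genes were picked after their values were seen, and their levels are descriptions.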
